A study of Mus musculus with 9 samples.

Results

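Voltage-gated sodium and calcium channel genes were taken from the count table of whole mouse brain by symbol: the pore-forming and accessory sodium channel subunits (Scn followed by a number and a or b), the calcium channel alpha1 and alpha2delta subunits (Cacna1, Cacna2d) and the calcium channel beta subunits (Cacnb1 to Cacnb4). The rule found 32 genes of 49315 in the table, 14 of them sodium and 18 calcium channel genes. Polyadenylated RNA was sequenced from wild-type C57BL/6J brains of 5 young mice, labelled 3 months old, and 4 old mice, labelled 33 months old. The study's methods describe male mice and give the young age as 3 or 4 months, and both ages carried the same genotype and had no treatment in this comparison. Library totals lay between 14229259 and 21150439 counted reads, of which the channel genes took 0.428% to 0.481%.

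Sodium channels are built from a large alpha subunit that forms the pore, opens on depolarisation and carries the upstroke of the action potential, and from small beta subunits that adjust gating and anchor the channel. Calcium channels have a pore-forming alpha1 subunit, an intracellular beta subunit and an extracellular alpha2delta subunit that carries the channel to the membrane. The alpha1 genes divide into L-type channels, which couple activity to gene expression and pacemaking, P/Q-, N- and R-type channels, which trigger transmitter release, and T-type channels, which open near the resting potential and drive burst firing.

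The deposited table follows transcripts of these genes, so the start of the gene is the sequence shown here for the members whose levels are taken up below. RefSeq promoter entries (build GRCm38.p6, from 250 bases before to 50 bases after the annotated start) matched 24 of the 32 members. Scn2b and Scn4b are given because they lie 8324 bases apart on the same strand of chromosome 9 and had nearly the same log2 fold change, Cacna2d2 and Cacna2d3 because both were lower in old brain, and Scn10a because it was the one member that was higher. Each is written 5′ to 3′ on the gene's strand, with every CG dinucleotide in capitals.
Scn2b, chr9:45117626-45117925, plus strand: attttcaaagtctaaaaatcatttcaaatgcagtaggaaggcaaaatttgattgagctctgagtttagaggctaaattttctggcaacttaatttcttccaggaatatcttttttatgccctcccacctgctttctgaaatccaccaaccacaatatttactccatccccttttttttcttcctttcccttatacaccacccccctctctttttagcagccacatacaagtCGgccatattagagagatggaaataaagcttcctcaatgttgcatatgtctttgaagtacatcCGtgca
Scn4b, chr9:45138374-45138673, plus strand: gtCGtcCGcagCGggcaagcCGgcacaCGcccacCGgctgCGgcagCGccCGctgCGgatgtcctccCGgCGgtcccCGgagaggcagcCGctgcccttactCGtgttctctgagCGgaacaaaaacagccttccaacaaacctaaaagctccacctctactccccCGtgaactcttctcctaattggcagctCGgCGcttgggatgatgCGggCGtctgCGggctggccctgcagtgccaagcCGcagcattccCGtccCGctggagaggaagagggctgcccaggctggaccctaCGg
Cacna2d2, chr9:107399630-107399929, plus strand: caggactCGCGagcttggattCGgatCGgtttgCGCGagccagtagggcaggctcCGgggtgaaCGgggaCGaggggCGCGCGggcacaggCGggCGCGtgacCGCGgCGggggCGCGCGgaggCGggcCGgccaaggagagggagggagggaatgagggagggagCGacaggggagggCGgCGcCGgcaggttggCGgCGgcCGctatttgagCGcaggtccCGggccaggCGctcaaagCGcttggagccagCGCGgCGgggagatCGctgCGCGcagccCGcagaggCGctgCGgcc
Cacna2d3, chr14:29721815-29722114, minus strand: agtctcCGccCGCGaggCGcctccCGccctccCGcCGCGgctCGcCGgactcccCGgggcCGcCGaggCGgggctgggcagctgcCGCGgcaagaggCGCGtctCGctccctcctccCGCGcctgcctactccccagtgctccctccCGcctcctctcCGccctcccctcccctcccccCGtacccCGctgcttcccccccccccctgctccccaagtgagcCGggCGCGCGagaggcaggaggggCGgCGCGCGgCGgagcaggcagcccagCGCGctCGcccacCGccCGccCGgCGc
Scn10a, chr9:119718983-119719282, minus strand: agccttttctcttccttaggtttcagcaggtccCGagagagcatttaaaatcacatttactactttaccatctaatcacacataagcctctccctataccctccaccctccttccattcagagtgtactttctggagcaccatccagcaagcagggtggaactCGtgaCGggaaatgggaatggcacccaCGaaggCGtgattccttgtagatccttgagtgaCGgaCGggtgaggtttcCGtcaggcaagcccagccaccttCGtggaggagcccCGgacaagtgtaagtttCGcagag

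The neighbours differed in CG content, with 2 CG dinucleotides in the Scn2b window and 26 in the Scn4b window. Of all 32817 RefSeq promoter windows of this length, 23.3% hold as few as Scn2b or fewer, and 16.9% hold as many as Scn4b or more. Cacna2d2 had 43 and Cacna2d3 had 41, numbers reached by 2.61% and 3.46% of all windows, and Scn10a had 11. The GC box GGGCGG, read on both strands, was found in 14 of the 34 windows of matched members and in 35.6% of all windows; Cacna2d3 held 6 copies, Cacna2d2 held 1, and Scn2b, Scn4b and Scn10a held 0. The letters CCAAT were present in 8 of the 34 windows (37.4% of all windows) and TATAAA in 2 (13.6%). CACGTG was found in 0 of the 34 (7.15% of all windows), and of the left and right parts of the RE1 element, TTCAGCAC was found in 0 (1.17%) and GGACAGC in 1 (6.56%). These are letter matches in the windows and were not tested against expression.

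The age comparison asked which transcripts differ between old and young brain. A total of 30 members passed edgeR's filter on low counts. In old brain 6 were lower at an adjusted p under 0.05 (edgeR quasi-likelihood test, Benjamini-Hochberg over all 18492 genes tested): Cacna1g, Cacna2d3, Scn2b, Cacna2d4, Cacna2d2 and Cacna1e. Scn10a was higher, with only 2 to 13 reads in each young mouse. It passed the filter through the old mice, so its being tested depended on the group where it was high. A filter of 1 CPM in at least 4 mice removed it, so the Scn10a call below carries this limit. Apart from Cacna2d4 and Scn10a the called differences were small, between -0.26 and -0.19 on the log2 scale. Of all genes tested, 11% were called in either direction, 4.83% lower and 6.2% higher in old brain, against 7, 6 and 1 of the 30 members. Only Scn10a also passed an absolute log2 fold change of 0.58, a limit that 2.68% of all genes passed together with the adjusted p. The median log2 fold change of the members was -0.044, against -9.2e-05 over all genes, and 18 of 30 were lower in sign.

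Abundant genes are called more often, so the 23 members with a mean log2 CPM (read counts scaled by library size) of at least 5 were also set beside the 6455 genes at that level. Of these members 5 were lower in old brain (21.7%), against 9.19% of the genes. Members are also long, with a median exon length of 9620.5 bases against 3883 for all tested genes, and with genes divided by length into 5 equal groups 23 of the 30 belong to the longest group, of which 7.14% were called lower. With a trend on exon length removed from each library, 7 members were called, 6 of them shared with the calls above. Cacna1e then had an adjusted p of 0.052 and Scn4b one of 0.044 (edgeR).

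**Figure D1:**
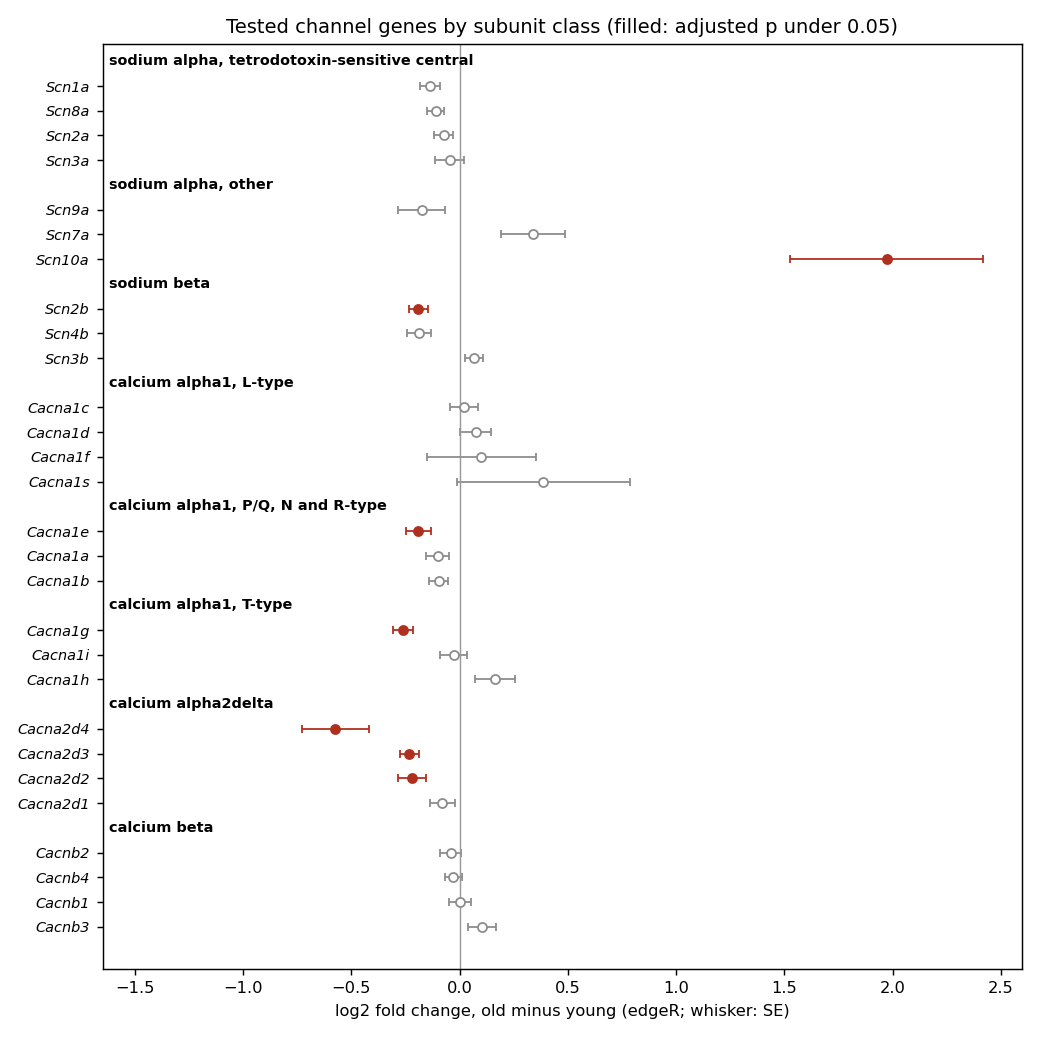
Log2 fold change (old minus young, edgeR, x axis) of 28 tested channel genes, grouped by subunit class, with whiskers of 1 SE from 5 young and 4 old mice; filled points have an adjusted p under 0.05. Filled points on the left are 3 of the 4 alpha2delta genes, Cacna1g, Cacna1e and Scn2b, and Scn10a stands alone on the right at 1.97.

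Libraries were compared by cell type markers before single genes were read. Summed CPM of the 8 neuronal markers lay between 5676 and 6119 in young and between 5506 and 5667 in old brain, and 4 of the 8 were lower in old brain (edgeR, adjusted p under 0.05). The 6 Purkinje cell markers (Purkinje cells are the output neurons of the cerebellar cortex) summed to 1492 to 1833 CPM in young and 1223 to 1565 CPM in old brain, with none at 0 in any mouse. All 6 had negative log2 fold changes and 3 were called, Car8, Calb1 and Pcp4. Markers of cerebellar granule cells summed to 691 to 895 CPM in young and 514 to 826 CPM in old brain, lowest in old replicate 3. Olfactory bulb markers varied within both ages, from 45.7 to 110 CPM in young and from 44.1 to 205 CPM in old brain, with young replicate 2 and old replicate 5 highest. For the last 2 lists edgeR called 0 of 6 genes each (2 each at an unadjusted p under 0.05) and DESeq2 called 0 (0 unadjusted). On log2(TPM + 1) and log2(TPM + 0.1), limma called 2 granule cell markers lower and 3 olfactory bulb markers higher. Young replicate 4 stood apart by its microglia markers, whose summed level was 262 CPM. The remaining young mice lay between 182 and 197 CPM and the old mice between 249 and 270 CPM, and 2 of the 6 microglia markers were called higher in old brain. The 5 endothelial markers summed to 195 to 210 CPM in young and 217 to 244 CPM in old brain without overlap, and 3 were called higher. The astrocyte gene Gfap and the myelin genes Mbp and Mobp were also higher (1.07 ± 0.24, 0.26 ± 0.063 and 0.33 ± 0.071, SE, log2). Gfap overlapped between ages, at 191 to 514 CPM in young and 434 to 638 CPM in old mice. Summed astrocyte markers were also highest in young replicate 4, at 3979 CPM. The remaining young mice had 3338 to 3538 CPM of them and the old mice 3668 to 3934 CPM. The part of endothelial, astrocyte and myelin genes in the channel gene results was not tested.

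The Purkinje cell, granule cell and olfactory bulb lists were each used as a covariate, and the other lists were not. With the mean log2 CPM of the Purkinje list as a covariate, an alternative added after seeing the data, 1 of the 7 members stayed called, Cacna2d3, and calls over all genes fell from 2039 to 847. The difference of Cacna1e was then -0.28 ± 0.080, that of Cacna2d4 -0.52 ± 0.24 and that of Scn10a 2.16 ± 0.61 (SE, log2; edgeR, adjusted p = 0.066, 0.25 and 0.062), so these 3 kept differences of similar or larger size with wider errors. Those of Cacna1g, Scn2b and Cacna2d2 moved toward 0, to -0.16 ± 0.058, -0.11 ± 0.058 and -0.047 ± 0.074. The mean log2 CPM of the Purkinje list itself ran lower in old brain, at 6.96 to 7.35 in young and 6.47 to 7.08 in old mice. With so few mice this covariate shares variation with age, and a lost call cannot be assigned to either. With the granule cell list as covariate 4 stayed called, Cacna1g, Cacna2d3, Cacna1e and Scn10a. With the olfactory bulb list 4 stayed called, Cacna1g, Cacna2d3, Scn2b and Scn10a. Without young replicate 4, 6 of the 7 stayed called; Cacna1e had an adjusted p of 0.081 and Scn4b entered at 0.036 (edgeR). In whole tissue, fewer cells of a type and less RNA per cell cannot be told apart.

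**Figure D2:**
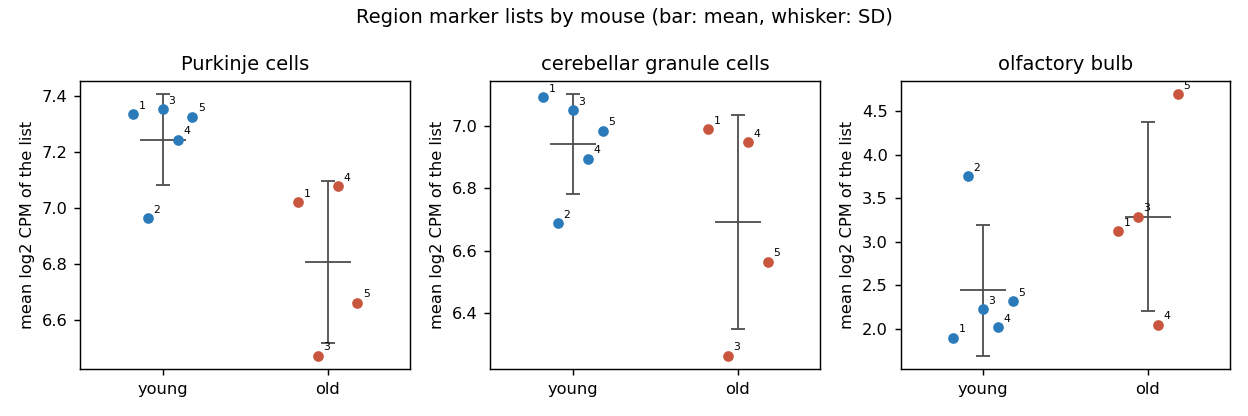
Mean log2 CPM (y axis) of the Purkinje cell, cerebellar granule cell and olfactory bulb marker lists in each mouse, with replicate numbers beside the points, the group mean as a bar and the SD as a whisker (5 young, 4 old). Old replicates 3 and 5 were the lowest for both cerebellar lists, and old replicate 5 was the highest for the olfactory bulb list.

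Among the T-type alpha1 genes, Cacna1g was lower in old brain and the other two were not called. Cacna1g (chr11:94408391-94474198, GRCm38) encodes the T-type subunit known for burst firing of thalamic relay cells. It was measured at 188, 178, 206, 188 and 184 CPM in young replicates 1 to 5 and at 168, 148, 158 and 156 CPM in old replicates 1, 3, 4 and 5. Every old mouse was below every young mouse, a pattern that 6.08% of all genes tested showed. The difference was -0.26 ± 0.046 (SE, log2), or -16.5% (edgeR, adjusted p = 0.0033), and the call held without any 1 of the 9 mice. With the Purkinje list as covariate it was -0.16 (adjusted p = 0.15, edgeR). Thalamic markers, 5 genes, summed to 365 to 411 CPM in young and 327 to 376 CPM in old brain, and 1 of them was called lower. Cacna1i and Cacna1h had log2 fold changes of -0.027 ± 0.062 and 0.16 ± 0.093 (SE), with ranges that overlapped between ages. For Cacna1h, old replicate 4 was the lowest of the 9 mice at 62.9 CPM and the other old mice lay between 77.5 and 90.3 CPM; without old replicate 4 Cacna1h was higher in old brain (0.26, adjusted p = 0.034, edgeR).

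All 4 alpha2delta genes had negative log2 fold changes, and 3 of them were called. These subunits raise the number of channels at the membrane and take part in forming synapses. Cacna2d3 (chr14:28904943-29721864) was measured at 86.2, 81.9, 79.2, 85.2 and 83.2 CPM in the young mice and at 71.6, 75.7, 69.8 and 66.3 CPM in the old mice. The groups did not overlap, and the difference was -0.23 ± 0.043 (SE, log2), or -14.9% (edgeR, adjusted p = 0.0043). The call held without any 1 mouse and with each of the 3 marker lists as covariate.

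Cacna2d2 (chr9:107399612-107529343), whose loss in the mouse gives cerebellar ataxia, was measured at 132, 116, 147, 119 and 139 CPM in the young and at 118, 107, 117 and 106 CPM in the old mice. Young replicate 2 lay below old replicates 1 and 4, so the groups overlapped. The difference was -0.22 ± 0.065 (SE, log2; edgeR, adjusted p = 0.044). The adjusted p was 0.053 with edgeR's robust dispersion estimate and between 0.050 and 0.12 without young replicates 1, 3 or 5 or any 1 old mouse. With the Purkinje list as covariate the difference was -0.047 (adjusted p = 0.78, edgeR).

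Cacna2d4, a subunit best known from photoreceptors, was at a low level of 39 to 91 reads a mouse. It was measured at 4.08, 3.15, 4.47, 4.40 and 4.69 CPM in the young and at 2.66, 2.75, 2.41 and 3.35 CPM in the old mice, and only young replicate 2 reached into the range of the old mice. The difference was -0.57 ± 0.15 (SE, log2; edgeR, adjusted p = 0.028), on the inner side of the 0.58 limit. The adjusted p lay between 0.053 and 0.073 without young replicates 1, 3 or 5 or old replicates 1, 3 or 4. Photoreceptor and pineal markers summed to 3.82 to 4.30 CPM in young and 3.81 to 5.09 CPM in old brain, and none of the 3 tested was called (edgeR, 0 at an unadjusted p under 0.05; DESeq2 also 0). Cacna2d1, a target of gabapentin, ranged from 168 to 196 CPM in young and from 156 to 191 CPM in old brain (log2 fold change -0.080 ± 0.058, SE).

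**Figure D3:**
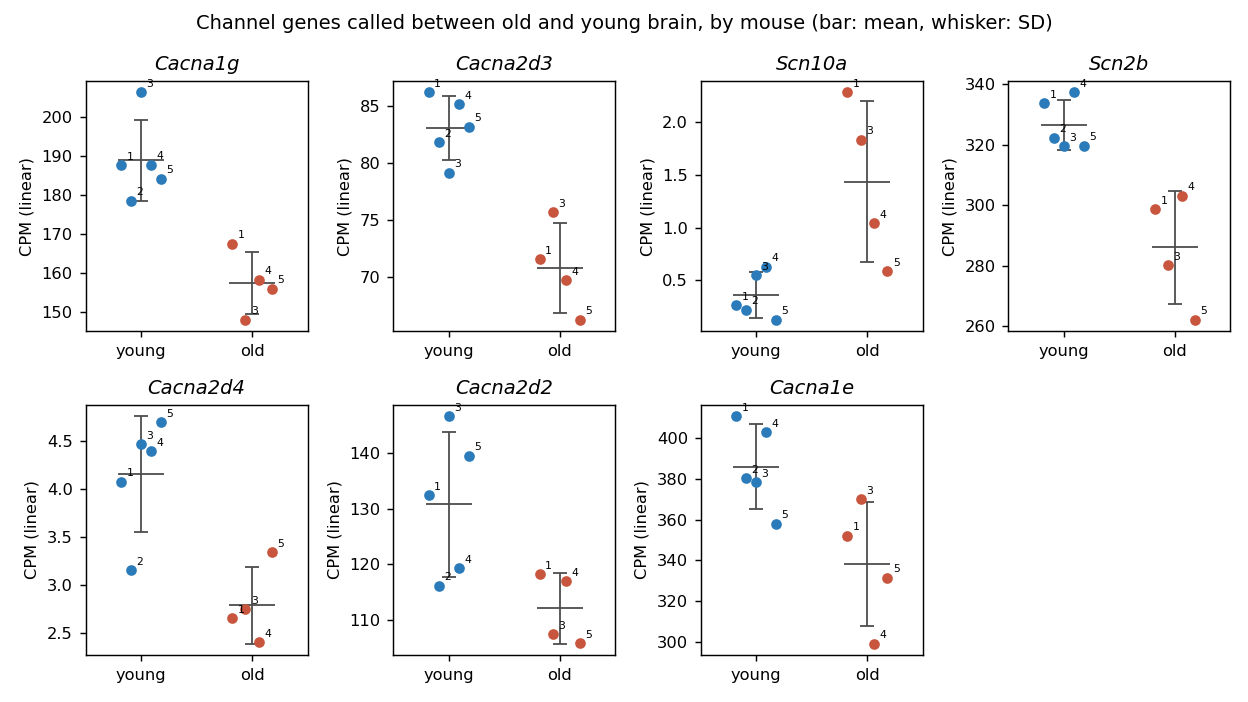
CPM (y axis, linear, not starting at 0) of the 7 called channel genes in each mouse, with replicate numbers beside the points, the group mean as a bar and the SD as a whisker (5 young, 4 old). Cacna1g, Cacna2d3 and Scn2b show no overlap between ages, and the old mice spread from 0.59 to 2.28 CPM for Scn10a.

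The 3 genes of the P/Q-, N- and R-type channels had negative log2 fold changes. Cacna1e (chr1:154390731-154884501), the R-type subunit, was measured at 411, 380, 378, 403 and 358 CPM in the young and at 352, 370, 299 and 331 CPM in the old mice. Old replicate 3 lay above young replicate 5, so the groups overlapped. The difference was -0.19 ± 0.057 (SE, log2; edgeR, adjusted p = 0.046), and the adjusted p was between 0.058 and 0.11 without young replicates 1, 2, 3 or 4 or old replicates 1, 4 or 5. Cacna1a, the P/Q-type subunit that dominates in Purkinje cells, had a log2 fold change of -0.10 ± 0.052 (SE); old replicate 1 was the highest of all mice at 325 CPM and the other old mice lay between 271 and 287 CPM. Without old replicate 1 Cacna1a was lower in old brain (-0.16, adjusted p = 0.032, edgeR), and with the Purkinje list as covariate its log2 fold change was 0.032. Cacna1b, the N-type subunit at presynaptic terminals, had a log2 fold change of -0.096 ± 0.044 (SE, adjusted p = 0.18, edgeR).

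No L-type or beta subunit gene was called. For both groups of 4 genes edgeR called 0, with 0 at an unadjusted p under 0.05, and DESeq2 also called 0. Cacna1c and Cacna1d, the neuronal L-type subunits, had log2 fold changes of 0.022 ± 0.065 and 0.074 ± 0.072 (SE). Cacna1f and Cacna1s, the subunits of retina and skeletal muscle, were at 14 to 32 and 6 to 32 reads a mouse and had wide errors, 0.099 ± 0.25 and 0.39 ± 0.40. Among the beta subunits the log2 fold change ran from -0.041 for Cacnb2 to 0.10 for Cacnb3, with SEs between 0.039 and 0.065. Cacnb4, which is mutated in the lethargic mouse, had 2.23 CPM of spread (SD) among the old mice at a mean of 248 CPM and was at 253 ± 12.5 CPM in young brain. Its transcript and that of Cacna1s share 15.8% and 14.9% of their 75-base words with an overlapping or neighbouring annotated transcript, so their counts are less certain.

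Of the sodium channel beta subunits, Scn2b was called and Scn4b, its neighbour on chromosome 9, had the same size of difference at an adjusted p just over the threshold. Scn2b (chr9:45117782-45130070) was measured at 334, 322, 320, 337 and 320 CPM in the young and at 299, 280, 303 and 262 CPM in the old mice. No old mouse reached the range of the young mice, and the difference was -0.19 ± 0.043 (SE, log2), or -12.4% (edgeR, adjusted p = 0.013). It held without any 1 mouse; with the Purkinje and granule cell lists as covariates it was -0.11 ± 0.058 and -0.15 ± 0.045 (SE, log2; edgeR, adjusted p = 0.31 and 0.051). Scn4b (chr9:45138395-45154152), the subunit linked to resurgent current in Purkinje cells, was measured at 240, 214, 245, 212 and 224 CPM in the young and at 188, 204, 221 and 185 CPM in the old mice. Old replicate 4 lay within the range of the young mice. Its difference was -0.19 ± 0.058 (SE, log2; edgeR, adjusted p = 0.051), and the adjusted p was 0.045 with the robust dispersion estimate, 0.020 with DESeq2 and 0.54 with the Purkinje list as covariate (edgeR). Scn3b had a log2 fold change of 0.065 ± 0.041 (SE).

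The 4 tetrodotoxin-sensitive alpha subunits of the central nervous system had negative log2 fold changes and none passed the test in edgeR, with 2 at an unadjusted p under 0.05, while DESeq2 called those 2, Scn1a and Scn8a. Scn8a, the subunit of nodes of Ranvier and the axon initial segment, was measured at 479, 443, 466, 495 and 447 CPM in the young and at 436, 440, 432 and 419 CPM in the old mice. The groups did not overlap, by a margin of less than 3 CPM between young replicate 2 and old replicate 3, and the difference was -0.11 ± 0.039 (SE, log2; adjusted p = 0.083 in edgeR and 0.035 in DESeq2). Scn1a, the subunit of fast-spiking interneurons that is mutated in Dravet syndrome, had a log2 fold change of -0.14 ± 0.046 (SE; adjusted p = 0.071 in edgeR and 0.039 in DESeq2). Without young replicate 2, the lowest young mouse at 226 CPM, it was called (adjusted p = 0.023, edgeR). Scn2a and Scn3a had log2 fold changes of -0.073 ± 0.043 and -0.047 ± 0.066 (SE). Up to 5.08% of the 75-base words of Scn1a, Scn2a, Scn3a and Scn9a occur in transcripts of another gene, which is another of these 4, clustered on chromosome 2, or the annotated gene Gm13629. In all, every old mouse was below every young mouse for 4 of the 30 members (Cacna1g, Cacna2d3, Scn2b and Scn8a). Of all genes tested, 6.08% showed this pattern. At a mean log2 CPM of at least 5 it was found in 4 of 23 members and in 698 of 6455 genes. For 0 members was every old mouse above every young mouse, a pattern seen in 6.5% of all genes.

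Scn10a (chr9:119608456-119719322), an alpha subunit known from pain-sensing neurons of sensory ganglia, was close to the lower end of detection. It was counted 5, 4, 8, 13 and 2 times in young replicates 1 to 5 and 43, 26, 19 and 10 times in old replicates 1, 3, 4 and 5. In CPM these were 0.26, 0.22, 0.55, 0.63 and 0.12 in the young and 2.28, 1.83, 1.04 and 0.59 in the old mice. Old replicate 5 lay just below young replicate 4, and old replicates 1 and 3 carried most of the reads. The log2 fold change was 1.97 ± 0.45 (SE; edgeR, adjusted p = 0.012), and without any 1 mouse the adjusted p was at most 0.045. The gene passed the filter on low counts through the old mice, so its being tested at all depended on the group where it was high, and a filter of 1 CPM in at least 4 mice removed it. Sensory ganglion markers summed to 11.01 to 16.8 CPM in young and 6.16 to 14.7 CPM in old brain. Of the 6 listed 4 were tested and edgeR called 0 (0 at an unadjusted p under 0.05; DESeq2 also 0). On log2(TPM + 1) and log2(TPM + 0.1), limma called 1 of the 4 lower. Mean levels in the young and the old mice were 6.47 ± 1.98 and 3.97 ± 2.35 CPM for Prph (SD, n = 5 and 4), 4.03 ± 0.32 and 3.62 ± 0.56 for Isl1 and 2.63 ± 0.31 and 2.18 ± 0.84 for Calca. Prdm12 was the 1 tested marker with a positive log2 fold change (0.092 ± 0.31, SE), at 0.82 ± 0.31 and 0.90 ± 0.25 CPM (SD). Trpv1 had 1 to 10 reads and Mrgprd 0 to 2 reads a mouse. Skeletal muscle markers were high in old replicate 4, at 39.1 CPM, while all remaining mice lay between 4.80 and 10.3 CPM. The part of either tissue in the Scn10a reads was not tested.

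Other alpha subunits were scarce in brain. Scn7a, known from glia and sensory organs of salt balance, had a log2 fold change of 0.34 ± 0.15 (SE; edgeR, adjusted p = 0.16). Scn9a, a subunit of peripheral neurons, was at -0.18 ± 0.11 (SE). Scn4a, the skeletal muscle subunit, had 0 or 1 read in each young mouse and 0, 2, 5 and 0 reads in old replicates 1, 3, 4 and 5. Scn11a, another sensory neuron subunit, had 1 to 5 reads in young and 2 to 5 in old mice. These last 2 members did not pass the filter and were not tested.

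Levels were compared between genes per kilobase of exons, as CPM per kb over the 9 mice. The length used was implied by the deposited counts and TPM values, or was the GENCODE length where reads were too few. It was within 1% of the GENCODE exon length for 29 of the 32 members. For Cacnb3 it was 3120 against 4010 bases, for Cacna2d3 3695 against 8720 and for Cacna1d 9242 against 12621. On the GENCODE lengths these genes would have lower levels per kb, so their place in the order depends on the length used. Of the accessory subunits, Scn2b was at 66.3 ± 5.35 (SD, n = 9), Cacnb3 at 50.1 ± 4.41 and Scn4b at 43.1 ± 4.14. The range of Cacnb3 overlapped those of Scn2b and Scn4b, and all 9 mice had Scn4b above Scn2a with no overlap. The main alpha subunits lay close together: Scn2a at 28.9 ± 1.49, Scn8a at 28.6 ± 1.55, Cacna1a at 26.4 ± 1.83 and Scn1a at 21.3 ± 1.51 CPM per kb, of which Scn2a was above Scn8a in 6 of 9 mice. Cacna1g, at 17.3 CPM per kb, was above Cacna2d2 in all 9 mice although their ranges overlapped. The means of Cacna2d2, Cacna1b, Cacna1i, Cacna1e and Cacna2d1, between 15.4 and 14.4 CPM per kb, could not be ordered beyond their spread. At the lower end were Cacna2d4 (0.375 ± 0.092), Cacna1f (0.143 ± 0.040), Cacna1s (0.140 ± 0.070), Scn10a (0.105 ± 0.095), Scn11a (0.034 ± 0.016) and Scn4a (0.0081 ± 0.013).

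**Figure D4:**
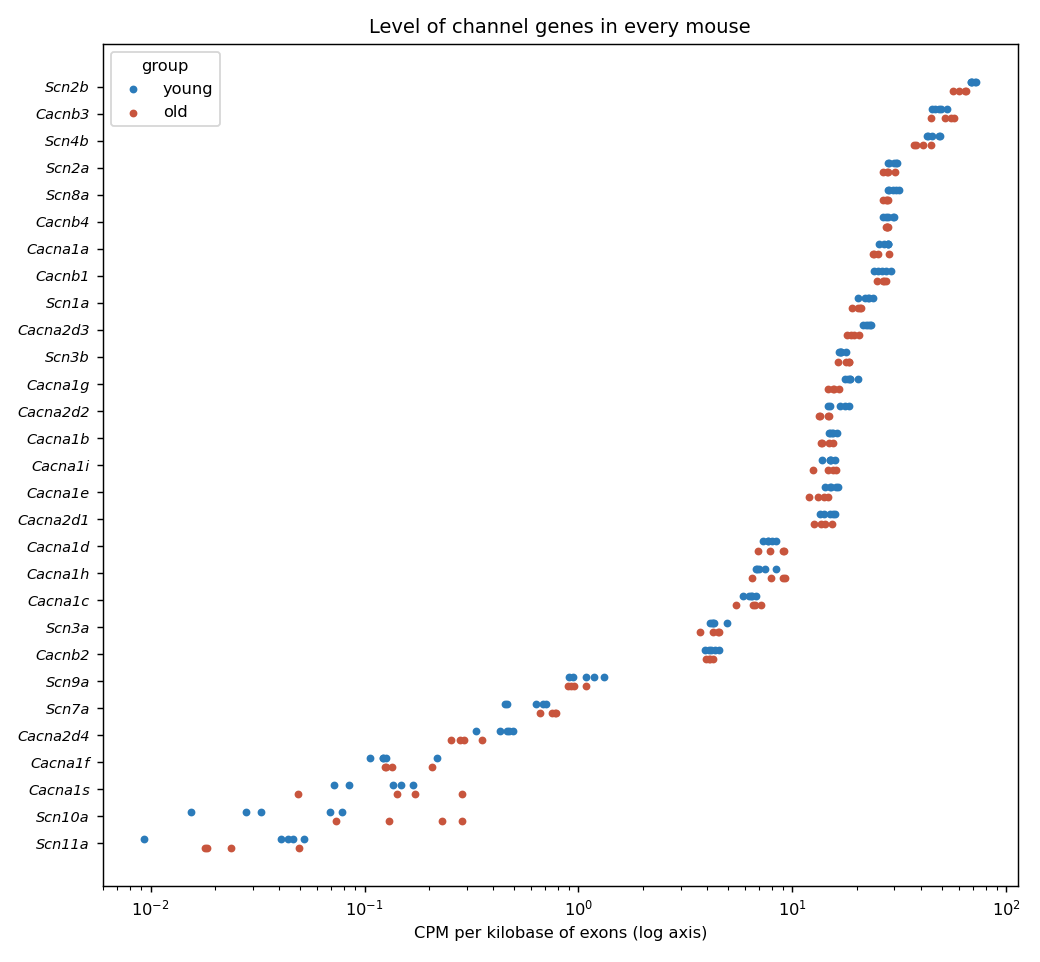
Level of 29 channel genes in CPM per kilobase of exons (x axis, log scale), ordered by mean, with 1 point a mouse (5 young, 4 old); Scn4a, at 0 in several mice, is left out. Scn2b lies at about 66.3 CPM per kb, a cluster of genes lies between 14.4 and 28.9, and Scn10a is the gene whose old mice lie apart from most young mice at the lower end.

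The mix of subunits was described as each gene's share of its group's summed CPM per kb, with no test since it restates the values above. Among sodium alpha subunits Scn8a, Scn2a and Scn1a held 33.4% ± 0.70, 33.3% ± 1.28 and 25.1% ± 1.34 in young brain (SD, n = 5) and 33.0% ± 0.39, 33.8% ± 1.02 and 24.3% ± 0.67 in old brain (SD, n = 4). Within the beta subunits the share of Scn2b was 19.0% to 20.2% in young and 17.3% to 17.9% in old mice, without overlap. Among calcium alpha1 subunits Cacna1a held the most, 22.5% to 24.8% in young and 22.2% to 25.7% in old brain, and Cacna1g held 16.5% ± 0.84 and 14.6% ± 0.98. The summed alpha2delta level, with the shorter length of Cacna2d3 given above, was 52.9 to 55.8 CPM per kb in young and 45.2 to 49.7 in old mice. The 3 large members kept shares whose ranges overlapped between ages. The summed sodium alpha level was 86.1 to 91.6 and 79.7 to 85.1 CPM per kb.

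Proteins that bind, anchor or regulate these channels were followed through lists of 64 genes, of which 62 were tested; 11 (17.7%) were lower and 2 higher in old brain (edgeR, adjusted p under 0.05). Over all genes tested 4.83% were lower and 6.2% higher, and among genes with a mean log2 CPM of at least 5 the share lower was 9.19%. Of the FGF homologous factors, which bind the tail of sodium channels and set their inactivation, 3 of 4 were lower: Fgf11 (-0.30 ± 0.066, SE, log2), Fgf13 (-0.20 ± 0.042) and Fgf14 (-0.21 ± 0.045), and Fgf12 was at -0.099 ± 0.043. In each of the 3, every old mouse was below every young mouse; Fgf14 was at 46.5 to 50.9 CPM in young and 40.2 to 44.2 CPM in old brain. Of 14 genes of the axon initial segment and node, where sodium channels cluster, 4 were lower. The paranodal adhesion gene Cntnap1 differed by -0.29 ± 0.045 (SE, log2), from 299 to 339 CPM in young to 247 to 278 CPM in old mice, its binding partner Cntn1 by -0.16 ± 0.033, and the adhesion genes Nrcam and Nfasc by -0.17 ± 0.044 and -0.17 ± 0.046.

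Of the gamma subunit and TARP family, AMPA receptor and calcium channel partners, Cacng4 was lower among 6 tested (-0.28 ± 0.042, SE, log2), and of the 4 genes of the sodium leak channel complex the pore Nalcn was lower (-0.15 ± 0.039). Of 17 calmodulin, CaMKII and presynaptic scaffold genes Calm3 was lower (-0.13 ± 0.032) and Stac2, which slows inactivation of L-type channels, was higher (0.18 ± 0.036). Among 4 genes of the Nedd4 ubiquitin ligase pathway Ndfip2 was lower (-0.17 ± 0.040). With the Purkinje list as covariate 0 of 4 FGF homologous factors (3 at an unadjusted p under 0.05, edgeR) and 2 of 14 axon initial segment and node genes were called lower. With that covariate 1 of 6 gamma subunit and TARP genes was called lower, and edgeR called 0 of the sodium leak channel complex, 0 of the calmodulin, CaMKII and scaffold genes and 0 of the ubiquitin ligase pathway, with 3, 5 and 1 at an unadjusted p under 0.05.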

How the data were processed

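Whole-brain polyadenylated RNA of 5 young and 4 old mice was sequenced as paired reads. The authors trimmed reads with Trimmomatic, aligned them to GRCm38 with STAR (mm10 and DESeq2 are named in the submitters' processing notes) and deposited raw counts of uniquely mapped exonic reads per gene from featureCounts; whether libraries were strand-specific is not given in the sources used here. They also deposited TPM values and normalized counts, a signal that equals the counts divided by 1 factor per library. Every table also holds 1 column, headed as an old replicate, that matches no labelled sample, and it was not used. The paper's legends give 5 biological replicates for the transcriptome. Symbols, positions and exon lengths came from GENCODE M21. Lengths for CPM per kb were those implied by the deposited counts and TPM values, scaled to those exon lengths. Each library came from 1 mouse, and the labels give no batch.

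Counts were tested with edgeR 4.0.16 (R 4.3.3): filterByExpr (minimum count 10, minimum total 15), TMM, glmQLFit and glmQLFTest with Benjamini-Hochberg adjustment over 18492 genes, checked on simulated data. The simulated data held 200 changed genes, against 2039 calls in the real data, so the share called may differ there. In the simulation 21% of genes changed by 0.25 and 83.5% of those changed by 1 (log2) were called. Unchanged genes made up 6.67% and 7.73% of the calls. A gene not called may therefore still differ by a small amount. CPM used TMM-scaled library sizes, and log2 CPM a prior count of 2. Alternatives used DESeq2 1.42.0 and limma 3.58.1. The ordinary dispersion estimate is edgeR's default; the robust estimate was tried as well and both results were known when the default was kept, since the stated design named no option. Values of 2 members and 1 partner gene are not reported here, although counts include them; called members are given by mouse, and of the partner genes those called. Members and lists were chosen with earlier results of these data known. Words of 75 bases were compared between GENCODE transcripts. Counting error alone limits genes with few reads.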

Additional observations from a re-analysis of the deposited data

Results flagged for a closer look

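Among the 30 tested channel genes in 2 age groups, 60 combinations in all, 3 had a highest or lowest mouse far from its group in Dixon's ratio of gap to range on log2 CPM, and chance gives about 3. Scn3a was highest in young replicate 2, at 61.9 CPM, with the remaining young mice between 51.2 and 53.5 CPM (ratio 0.766). Cacna1f was highest in young replicate 5, at 1.98 CPM against 0.962 to 1.15 CPM (ratio 0.758), and in old replicate 5, at 1.88 CPM against 1.13 to 1.22 CPM (ratio 0.847), from 14 to 32 reads a mouse. None of the 7 called genes had such a mouse.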

How the results depend on the processing

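The counts of 6 lower and 1 higher members kept within 1.5 times under DESeq2 size factors, the DESeq2 Wald test, limma on normalized counts, the length trend and the robust dispersion estimate. The DESeq2 Wald test was at that limit, with 9 lower and 1 higher, and added Scn1a, Scn4b and Scn8a. Without a low-count filter 2 members passed both thresholds, and with the filter of 1 CPM in 4 libraries 0 were higher and 0 passed both, since Scn10a was not tested. limma on log2(TPM + 1) called 0 lower, 0 higher and 0 past both (8 at an unadjusted p under 0.05), with a member median of -0.19, and log2(TPM + 0.1) called 0 lower with a median of -0.21; the medians of all genes were -0.14 and -0.16, and members lay -0.051 and -0.043 from them. With covariates added after seeing the data, the Purkinje list left 1 lower, 0 higher, 0 past both and a median of -0.088, and the granule cell and olfactory bulb lists left 3 lower each; the cause was not tested. Leaving out each mouse in turn gave 3 to 7 lower, 1 to 2 higher and 1 to 2 past both thresholds. The labels do not say whether replicate numbers pair the mice. Deviations correlated at 0.17, -0.12, 0.088 and -0.024 for numbers 1, 3, 4 and 5, too few numbers to decide on pairing. With the replicate number as a block, which drops young replicate 2, 7 members were called, 6 of them shared, 2 passed both thresholds and Scn3a was at 0.0030.

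The called members kept their sign under every alternative run. Signs turned for members that had not been called. Cacnb1 (0.0013) was at -0.00032 with DESeq2 size factors, -0.0030 in DESeq2, -0.0089 unfiltered and -0.0036 with the length trend. On log2(TPM + 1) and log2(TPM + 0.1), Cacna1c was at -0.14 and -0.15, Cacna1d at -0.090 and -0.094, Cacna1f at -0.011 and -0.041, Cacna1h at -0.0086 and -0.0093, Cacnb1 at -0.16 and -0.16, Cacnb3 at -0.064 and -0.065, and Scn3b at -0.098 and -0.0995. With the Purkinje list Cacna1a was at 0.032, Cacna1c at -0.085, Cacna1d at -0.15, Cacna1s at -0.49, Cacnb1 at -0.087, Cacnb3 at -0.033, and Scn3b at -0.028. With the granule cell list Cacna1c was at -0.022, Cacna1d at -0.029, Cacna1s at -0.088 and Cacnb1 at -0.033. With the olfactory bulb list Cacna1c was at -0.049, Cacna1d at -0.027, Cacna1f at -0.050, Cacna1s at -0.033 and Cacnb1 at -0.041. Without 1 mouse, ranges were -0.032 to 0.096 for Cacna1c, -0.10 to 0.31 for Cacna1f, -0.071 to 0.041 for Cacna1i, -0.055 to 0.71 for Cacna1s, -0.025 to 0.039 for Cacnb1 and -0.080 to 0.013 for Scn3a. Depth left Scn4a and Scn11a, at no more than 5 reads a mouse, untested.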
